A study of Mus musculus with 8 samples.

Results

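The Notch receptors and ligands are 9 genes, the receptors Notch1, Notch2, Notch3 and Notch4 and the ligands Dll1, Dll3, Dll4, Jag1 and Jag2. They were taken by gene symbol from the platform's annotation and hold 18 of the 45101 probe sets on the array. For each gene the brightest probe set on average leads, and the others serve as a check. All 9 are among the 14598 genes tested, out of 18194 genes with a value. Each sorted sample was hybridised to an Affymetrix mouse array of its own. The samples are mammary epithelial cells of mice that lack the transcription factor C/EBPb in the germline and of wildtype mice. The 4 groups were knockout (KO) and wildtype (WT) cells that were LIN-CD24+CD29hi (CD29hi below), and KO and WT cells that were LIN-CD24hiCD29lo (CD29lo below), with 2 biological replicates each. Per the labels, the cells came from 2 paired sets of glands with 10 mice per group. A germline deletion removes the gene from every cell of the animal, not only from the sorted cells. The sources used here do not give the strain, age or mating state of the mice, the deleted part of Cebpb or the purity of the sorts. The series asked which signalling pathways C/EBPb regulates in these stem and progenitor subpopulations.

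Notch signalling runs between neighbouring cells. A ligand of the Delta-like (Dll) or Jagged (Jag) family on one cell binds a Notch receptor on the next, the receptor is cut by ADAM proteases and gamma-secretase, and its intracellular part joins the DNA-binding protein RBPJ to switch on targets such as the Hes and Hey genes. In the mammary gland the pathway is known for directing progenitors toward the luminal lineage, and CD29hi and CD29lo sorts are commonly used to enrich basal and luminal cells.

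The promoters of the genes whose signal differed between the subpopulations are shown for orientation, as the 100 bases before the annotated start of transcription on build GRCm38.p6 (RefSeq), 5′ to 3′, with each CG dinucleotide in capitals. Dll1, Jag1 and Jag2, higher in CD29hi, lie on the minus strand at chr17:15376933-15377032, chr2:137116521-137116620 and chr12:112929496-112929595.
Dll1: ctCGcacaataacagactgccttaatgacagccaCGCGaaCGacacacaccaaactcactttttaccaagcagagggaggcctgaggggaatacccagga
Jag1: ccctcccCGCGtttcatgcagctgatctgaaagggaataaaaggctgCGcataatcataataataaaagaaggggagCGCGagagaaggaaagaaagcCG
Jag2: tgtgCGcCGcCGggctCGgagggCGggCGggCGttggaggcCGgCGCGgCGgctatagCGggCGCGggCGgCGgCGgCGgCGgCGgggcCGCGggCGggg
The receptors Notch1 and Notch3, lower in CD29hi, lie on the minus strand at chr2:26503823-26503922 and chr17:32166891-32166990.
Notch1: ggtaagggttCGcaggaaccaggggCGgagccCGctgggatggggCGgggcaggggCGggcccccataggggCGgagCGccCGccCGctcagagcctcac
Notch3: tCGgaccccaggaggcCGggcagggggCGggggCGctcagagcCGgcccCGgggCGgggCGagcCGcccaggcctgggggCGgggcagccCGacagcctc
These stretches hold 4 CG in Dll1, 6 in Jag1, 23 in Jag2, 9 in Notch1 and 11 in Notch3, for Dll1 at the outermost of its 2 starts. The whole windows of the 2 Dll1 starts hold 24 and 15 CG, the 15 at the start shown. All 9 genes matched the RefSeq table, Dll1 with 2 starts, which gave 10 windows of 300 bases (250 before and 50 after the start). The core letters of the RBPJ motif, TGGGAA, and of the C/EBP motif, TTGCNNAA, were searched on both strands, and neither motif contains the other. Neither was found in any of the 10 windows, while 25.6% and 10.8% of the 32851 windows of that length in the table hold them. This says only that these letters are not in these windows.

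The arrays carried the signal of the sorts. Values are log2 signals as the authors deposited them, and the background of an array (3.84 to 4.41) was taken from its 27 bacterial control probe sets as their 95th percentile. Cebpb read 8.60 to 9.38 in the KO arrays and 11.83 to 12.25 in the WT arrays. Basal markers such as Krt5 and Acta2 were called higher in CD29hi for 12 of 14 genes and luminal markers such as Krt8 called lower for 9 of 12 (limma, averaged over genotypes). Itgb1, the gene of the sort marker CD29, was 1 of the 2 basal markers not called (0.27, limma adjusted p = 0.0615). KO CD29lo replicate 1 and WT CD29lo replicate 2 stood apart on the second principal component (64.6 and -56.2, against -18.9 to 11.4 for the other 6 arrays), and the summed fibroblast markers ran from 12.01 to 14.78 in KO CD29lo and from 13.66 to 15.24 in WT CD29lo (log2 of the sum). The averaged Notch3 difference without these arrays is given below, as are values that changed sign without them. Fewer cells of a type and less RNA per cell cannot be told apart in such sorted bulk samples.

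The ligands Dll1, Jag1 and Jag2 were higher and the receptors Notch3 and Notch1 lower in CD29hi than in CD29lo cells. Over both genotypes, limma called 3 of the 9 genes higher and 2 lower (adjusted p under 0.05, Benjamini-Hochberg over all genes), where it called 12.2% of all genes higher and 10.8% lower. The median log2 fold change of the 9 was 0.21, against 0.01 for all genes tested. In KO cells 2 were called higher and 2 lower (7.41% and 6.66% of all genes), and in WT cells 2 higher and 1 lower (3.96% and 4.23%). The arrays of the gates did not overlap for 3 genes that were higher and 1 that was lower, as for 13.2% and 12.1% of all genes. The 4 other genes, Notch2, Notch4, Dll3 and Dll4, were not called in any of these comparisons. Genes called between the gates are common on these arrays, so the count alone does not set the family apart. Dissociation stress markers such as Fos and Fosb also differed, with 5 of 11 called lower in CD29hi. Their summed levels were 15.07 to 15.21 in KO CD29hi and 14.81 to 14.98 in WT CD29hi, against 15.29 to 15.50 in KO CD29lo and 15.10 to 15.18 in WT CD29lo. Averaged over gates, 11 of 11 stood above 0 in KO over WT, with 0 called by limma and a median of 0.29. The part of these markers in the results on the family was not tested.

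Dll1, a Delta-like ligand that activates Notch receptors on neighbouring cells, had the widest span of the family. Its single probe set read 10.88 and 10.74 in KO CD29hi and 10.65 and 10.65 in WT CD29hi, against 6.44 and 5.78 in KO CD29lo and 6.83 and 6.14 in WT CD29lo. Every CD29hi array lay far above every CD29lo array, and the KO and WT arrays lay close within each gate. The difference averaged over genotypes was 4.43 ± 0.23 (log2 fold change ± SE), or 21.6-fold (limma adjusted p = 2.22e-05). It ranked 27 of 14598 genes by p. The difference was 4.70 ± 0.33 in KO cells (limma adjusted p = 0.000221) and 4.17 ± 0.33 in WT cells (limma adjusted p = 0.000446). The CD29lo arrays still lay above the background on this probe set.

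Jag1, a Jagged ligand, was high in both gates and higher in CD29hi. Its leading probe set read 11.80 and 11.55 in KO CD29hi and 11.52 and 11.72 in WT CD29hi, against 9.31 and 9.72 in KO CD29lo and 9.17 and 9.78 in WT CD29lo. The gates did not overlap in either genotype. The averaged difference was 2.15 ± 0.17, or 4.45-fold (limma adjusted p = 0.000102). Its other probe sets, fitted with every probe set on the array, gave nearly the same difference, 2.26 ± 0.20 and 2.32 ± 0.27 (limma adjusted p = 0.00016 and 0.000611). Of all probe sets 20.8% were called in that fit.

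Jag2, the other Jagged ligand, was higher in CD29hi by an amount that depended on the probe set. The leading probe set read 7.65 and 7.16 in KO CD29hi and 7.30 and 7.65 in WT CD29hi, against 6.49 and 6.38 in KO CD29lo and 6.07 and 6.30 in WT CD29lo. It gave an averaged difference of 1.13 ± 0.24 (limma adjusted p = 0.0118), which did not pass in KO (0.97, limma adjusted p = 0.0984) or WT cells (1.29, limma adjusted p = 0.0569) alone. Without KO CD29hi replicate 1 the averaged call was lost (limma adjusted p = 0.0566).
The other Jag2 probe set read 8.31 and 8.14 in KO CD29hi and 7.83 and 8.53 in WT CD29hi, against 3.58 and 4.43 in KO CD29lo and 4.16 and 3.68 in WT CD29lo. Its CD29lo values lay at or near the background, with 1 array of each genotype above it. Its averaged difference was 4.24 ± 0.32 (limma adjusted p = 7.75e-05), and it passed in KO (4.22) and in WT cells (4.26) as well. Both probe sets had the same direction. The size of the second rests on CD29lo values around the background and is not exact.

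Dll4 and Dll3 were too dim to place. Dll4, a ligand best known from endothelium, lay above the background on 4 of 8 arrays, with 4.70 and 5.08 in KO CD29hi and 4.73 and 3.74 in WT CD29hi, against 4.22 and 4.90 in KO CD29lo and 3.32 and 1.49 in WT CD29lo. Its other probe set lay below the background on all arrays. Dll3, a divergent Delta-like protein that is known to inhibit Notch rather than activate it, lay above the background on 3 arrays, with 2.93 and 3.28 in KO CD29hi, 4.59 and 3.44 in WT CD29hi, 4.94 and 3.77 in KO CD29lo and 5.07 and 3.86 in WT CD29lo. Replicates of 1 group fell on both sides of the background in 3 of the 4 groups for Dll3.

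**Figure D1:**
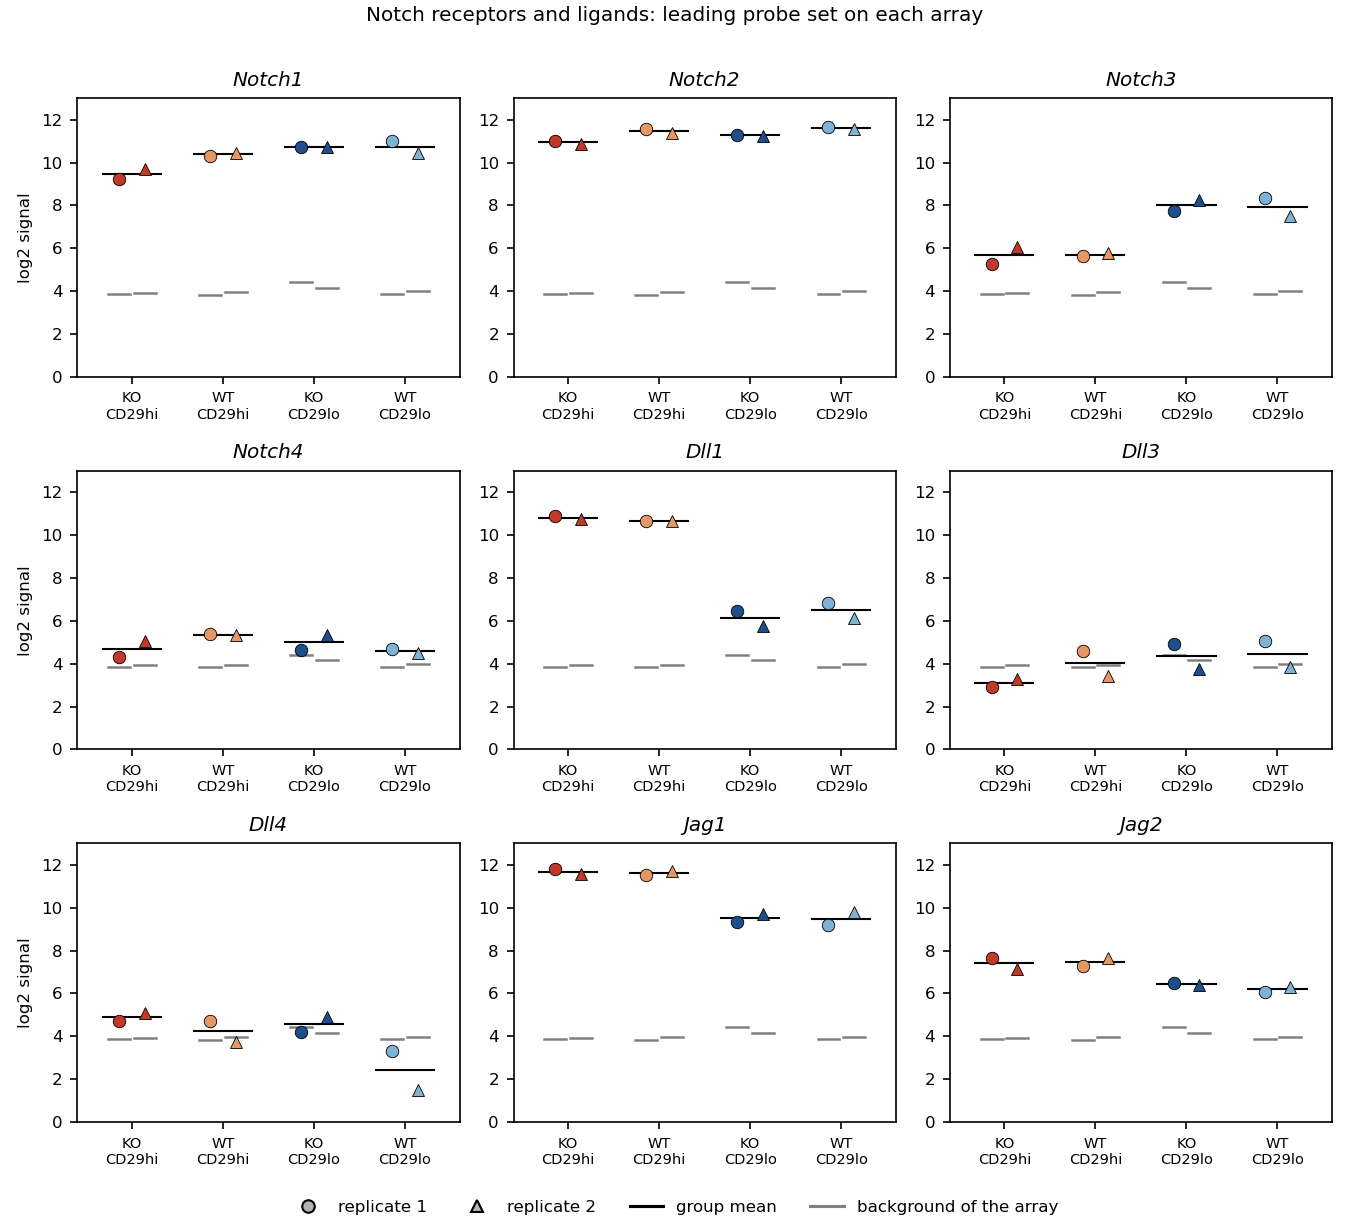
Log2 signal of the leading probe set of each gene on each of the 8 arrays, in 4 groups of 2 replicates, with group means as black lines and the background of each array as grey lines. Dll1, Jag1 and Jag2 lie higher and Notch3 lower on every CD29hi array than on any CD29lo array, while Dll3 and Dll4 scatter around the background.

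Among the receptors, Notch3 showed the opposite gate pattern to the ligands. Notch3, known as a receptor of luminal progenitors in the mammary gland and of vascular mural cells elsewhere, read 5.28 and 6.06 in KO CD29hi and 5.62 and 5.77 in WT CD29hi, against 7.75 and 8.25 in KO CD29lo and 8.33 and 7.50 in WT CD29lo. No CD29hi array reached a CD29lo array. The averaged difference was -2.27 ± 0.31, or 4.84-fold lower in CD29hi (limma adjusted p = 0.00128), with -2.33 ± 0.43 in KO (limma adjusted p = 0.00991) and -2.22 ± 0.43 in WT cells (limma adjusted p = 0.0171). Its other probe set, whose name marks it as able to match several transcripts, gave -1.80 ± 0.26 (limma adjusted p = 0.00187).
The WT call was lost without WT CD29hi replicate 1 (limma adjusted p = 0.0927), WT CD29hi replicate 2 (0.0833) or WT CD29lo replicate 1 (0.112), and the KO call without KO CD29hi replicate 1 (0.0798). The averaged call held whichever array was left out. Fibroblast markers moved with this difference: 10 of 12 were called lower in CD29hi, with summed levels of 10.45 to 11.17 in KO CD29hi and 10.47 to 11.27 in WT CD29hi, against 12.01 to 14.78 in KO CD29lo and 13.66 to 15.24 in WT CD29lo, and none of the 12 was at 0. Within CD29lo, the array with the higher fibroblast sum had the higher Notch3 in KO and the lower Notch3 in WT, and the part of these markers in the gate difference was not tested. Without KO CD29lo replicate 1 and WT CD29lo replicate 2, the averaged Notch3 difference was -2.61. The CD29lo arrays kept there still carried fibroblast signal, with Dcn at 12.12 in KO CD29lo replicate 2 and 11.04 in WT CD29lo replicate 1. Of the pericyte markers, 0 of 7 tested were called between the gates, with 4 of 7 above 0, and the list's summed levels were 8.11 to 9.93 in KO CD29hi and 8.75 to 8.90 in WT CD29hi, against 8.003 to 10.15 in KO CD29lo and 9.05 to 10.26 in WT CD29lo.

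Notch1, the receptor with the best known role in luminal commitment, was lower in CD29hi mainly through the KO arrays. It read 9.25 and 9.69 in KO CD29hi and 10.31 and 10.45 in WT CD29hi, against 10.73 and 10.71 in KO CD29lo and 11.00 and 10.44 in WT CD29lo. The KO CD29hi arrays were the lowest of the 8, and the other 3 groups lay within 10.31 to 11.00. The gate difference was -1.25 ± 0.23 in KO cells (2.38-fold lower, limma adjusted p = 0.00978) and -0.34 ± 0.23 in WT cells (limma adjusted p = 0.448). The KO call was lost without KO CD29hi replicate 1 (-1.03, limma adjusted p = 0.0775). A call in KO and not in WT cells does not show that the genotypes differ, and the test of that difference did not pass (interaction -0.91 ± 0.33, limma adjusted p = 0.961). At an unadjusted p under 0.05 Notch1 was the 1 member of 9 with an interaction, against 4.95% of all genes. The other Notch1 probe set gave a gate difference of -1.495 ± 0.21 in KO (limma adjusted p = 0.00275) and -0.305 ± 0.21 in WT cells (limma adjusted p = 0.468). Its interaction was -1.19 ± 0.29 and did not pass either (limma adjusted p = 0.958).

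Notch2 and Notch4 were not called between the gates. Notch2, a receptor closely related to Notch1, read 11.03 and 10.87 in KO CD29hi and 11.55 and 11.40 in WT CD29hi, against 11.30 and 11.23 in KO CD29lo and 11.66 and 11.57 in WT CD29lo, an averaged difference of -0.23 ± 0.09 (limma adjusted p = 0.095). Within each genotype both CD29hi arrays lay below both CD29lo arrays, by a small step. With quantile normalization this difference was -0.29 and passed (limma adjusted p = 0.0344).
Notch4, an endothelial receptor in most tissues, was dim on all 3 of its probe sets. The leading one read 4.30 and 5.07 in KO CD29hi and 5.37 and 5.33 in WT CD29hi, against 4.66 and 5.35 in KO CD29lo and 4.70 and 4.52 in WT CD29lo, and the groups could not be ordered. The next lay above the background on all 4 CD29hi arrays and on none of the CD29lo arrays, with an averaged difference of 0.98 ± 0.42 (limma adjusted p = 0.141). The third lay above the background on 3 arrays. Endothelial markers were present in every group, with 9 to 15 of 16 above the background in KO CD29lo and 14 to 16 elsewhere, and 0 of 16 were called between the gates. Their summed levels were 9.46 to 11.33 in KO CD29hi and 10.38 to 10.84 in WT CD29hi, against 9.24 to 10.41 in KO CD29lo and 10.71 to 10.91 in WT CD29lo. Their part in the Notch4 and Dll4 signals was not tested.

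**Figure D2:**
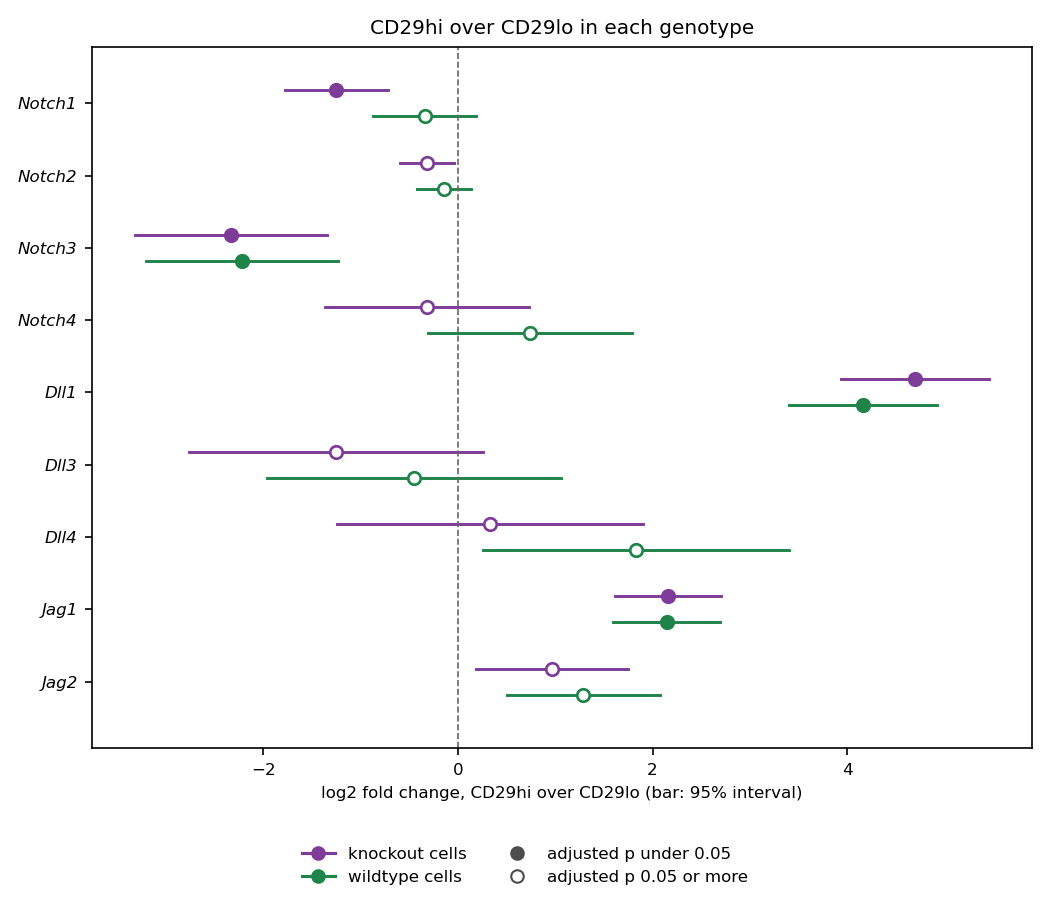
Log2 fold change of CD29hi over CD29lo for each gene (horizontal axis), in knockout and in wildtype cells, with 95% intervals from limma; filled points passed an adjusted p of 0.05. Dll1 (4.70 in KO and 4.17 in WT) and Jag1 (2.16 and 2.15) lie right of 0 and Notch3 (-2.33 and -2.22) left of it in both genotypes, while Notch1 is filled only in KO.

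**Figure D3:**
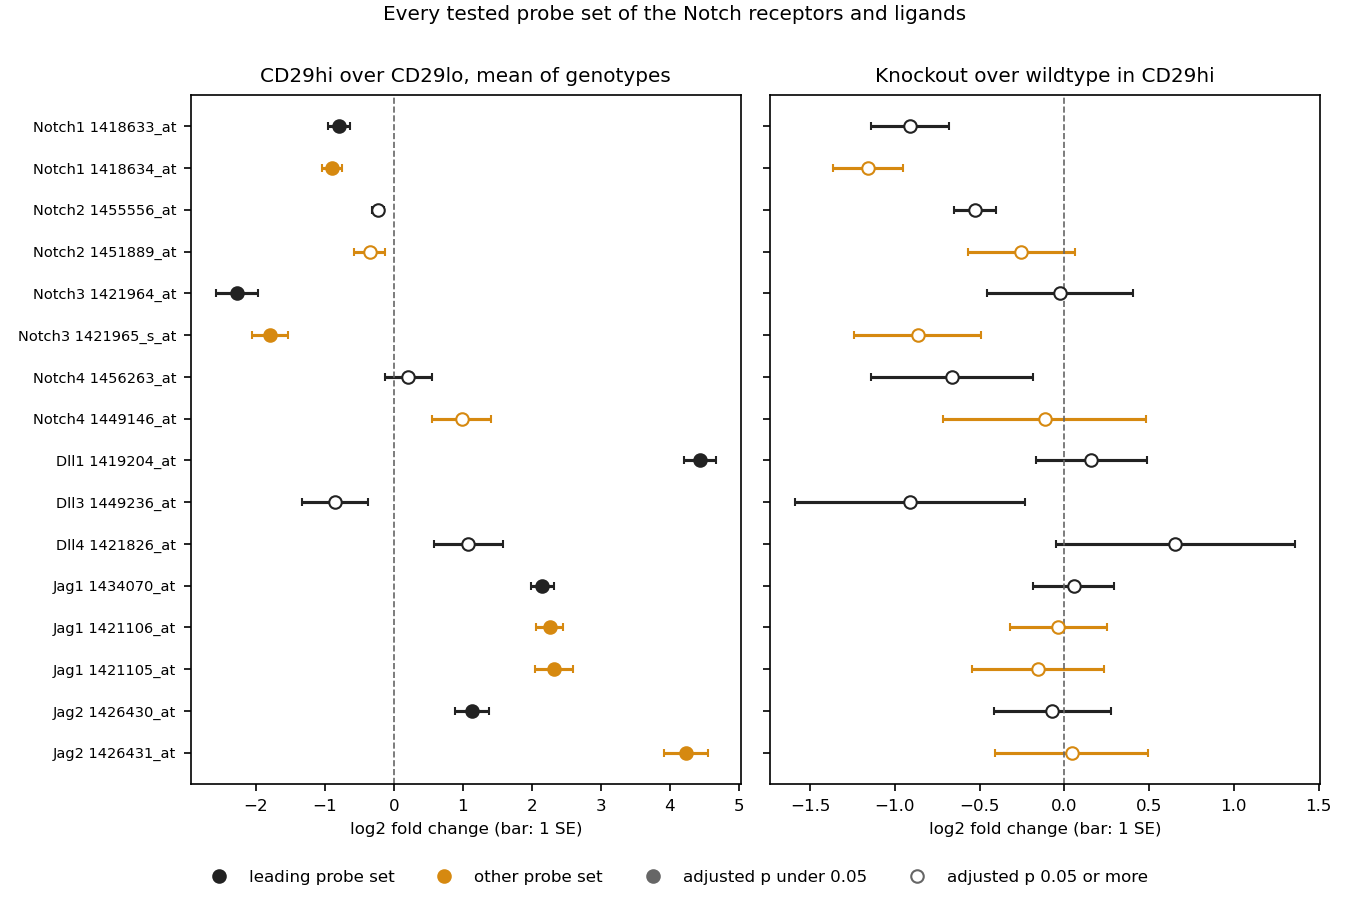
Log2 fold change with 1 SE for each of the 16 tested probe sets of the family, for CD29hi over CD29lo averaged over genotypes (left) and for knockout over wildtype in CD29hi (right); black marks the leading and orange the other probe sets. The probe sets of Jag1 and of Notch1 lie side by side, whereas those of Jag2 lie at 1.13 and 4.24 in the left panel and those of Notch3 at -0.03 and -0.87 in the right panel.

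No member was called between the genotypes, and the lowest p values among the receptors were those of Notch2 and Notch1. Of the 9 genes, limma called 0 within CD29hi, 0 within CD29lo and 0 when both were averaged. Over all genes it called 0.0137%, 0.0137% and 0.0685% there. With an unadjusted p under 0.05 stood Notch1 and Notch2 in CD29hi, Notch2 and Dll4 in CD29lo, and these 3 in the average, that is 2, 2 and 3 of 9 against 7.84%, 6.68% and 9.27% of all genes. Dll4 counts there with both WT CD29lo arrays below the background. The KO and WT arrays did not overlap for 1 higher and 4 lower genes in CD29hi (18.3% and 21.2% of all genes), for 2 higher and 1 lower in CD29lo (14.7% and 19.6%), and for 0 higher and 1 lower over all arrays (1.24% and 2%). These include Dll3, lower in CD29hi with both KO arrays below the background, and Dll4, higher in CD29lo. The median of the 9 was -0.07 in CD29hi, 0.04 in CD29lo and -0.11 averaged, against -0.02, -0.06 and -0.05 for all genes.

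Notch2 was lower in all 4 KO arrays than in all 4 WT arrays. The KO arrays lay between 10.87 and 11.30 and the WT arrays between 11.40 and 11.66, and the same held within each gate. The averaged difference was -0.44 ± 0.09, or 1.35-fold lower in KO (95% interval -0.63 to -0.24), and did not pass (limma adjusted p = 0.184). Within CD29hi it was -0.53 ± 0.12 (limma adjusted p = 0.307), and within CD29lo -0.35 ± 0.12 (limma adjusted p = 0.658). The interaction between gate and genotype was -0.18 ± 0.17 (limma adjusted p = 0.969). The other Notch2 probe set read 7.28 and 7.06 in KO CD29hi against 7.67 and 7.18 in WT CD29hi, and 7.34 and 7.54 in KO CD29lo against 7.79 and 7.93 in WT CD29lo. It gave -0.34 ± 0.22 (limma adjusted p = 0.732), with overlap between the genotypes in CD29hi.

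Notch1 was lower in KO CD29hi than in WT CD29hi on both of its probe sets, and level in CD29lo. The leading probe set gave -0.91 ± 0.23 in CD29hi (95% interval -1.44 to -0.38, limma adjusted p = 0.321), against 0.00 ± 0.23 within CD29lo. The other probe set read 8.91 and 9.11 in KO CD29hi against 10.14 and 10.20 in WT CD29hi, and 10.63 and 10.38 in KO CD29lo against 10.69 and 10.26 in WT CD29lo. Its difference was -1.16 ± 0.21 for CD29hi (limma adjusted p = 0.275), against 0.03 ± 0.21 for CD29lo. Both KO CD29hi arrays were the lowest of the 8 on both probe sets, without a call.
The summed levels of other marker lists stood lower in KO CD29hi as well, with no called gene. Luminal progenitor markers such as Elf5, Kit and Csn3 had summed levels of 10.57 to 11.67 in KO CD29hi against 12.52 to 12.60 in WT CD29hi, with 9 of 10 members below 0, 0 of 10 called and none at 0. Cell cycle markers such as Mki67 had summed levels of 11.38 to 11.71 in KO CD29hi against 12.43 to 13.08 in WT CD29hi. Of these genes, 11 of 11 were below 0 and 0 called. Pcna, at 11.23 and 11.06 in KO CD29hi and 11.49 and 11.36 in WT CD29hi, weighs heavily in these sums. The KO over WT median in CD29hi was -3.305 for cell cycle and -1.41 for luminal progenitor markers (-0.02 for all genes). Both KO arrays lay below both WT arrays for 10 of 11 and 7 of 10 of them (21.2% of all genes). The part of these 2 lists in the Notch1 difference was not tested.

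Limma called none of the ligands that marked CD29hi between the genotypes. Both KO arrays still lay above both WT arrays for Dll1 in CD29hi and for Jag2 in CD29lo. For Dll1 the KO over WT difference was 0.16 in CD29hi (95% interval -0.60 to 0.92) and -0.38 in CD29lo (-1.14 to 0.39). For Jag1 it was 0.06 in CD29hi (-0.49 to 0.60) and 0.04 in CD29lo (-0.51 to 0.59). For Jag2 it was -0.07 in CD29hi (-0.85 to 0.71) and 0.25 in CD29lo (-0.53 to 1.03). These intervals leave room for changes of either sign, least for Jag1.
Notch3 gave -0.03 in CD29hi (-1.01 to 0.96) and 0.09 in CD29lo (-0.90 to 1.07), with a limma adjusted p of 0.997 and 0.975. Its other probe set, at 4.58 and 4.59 in KO CD29hi against 5.35 and 5.55 in WT CD29hi, gave -0.87 ± 0.37 in CD29hi (limma adjusted p = 0.682), so its probe sets differed there. Notch4 stood at -0.67 ± 0.46 for CD29hi (limma adjusted p = 0.821) and at 0.40 ± 0.46 for CD29lo.
Dll4 was below the background on both WT CD29lo arrays, and 1 of 2 KO CD29lo arrays was above it (limma adjusted p = 0.658), so no size is given for the difference. Dll3 was below it on both KO CD29hi arrays, and 1 of 2 WT CD29hi arrays was above it (limma adjusted p = 0.837). Neither gene was called.

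**Figure D4:**
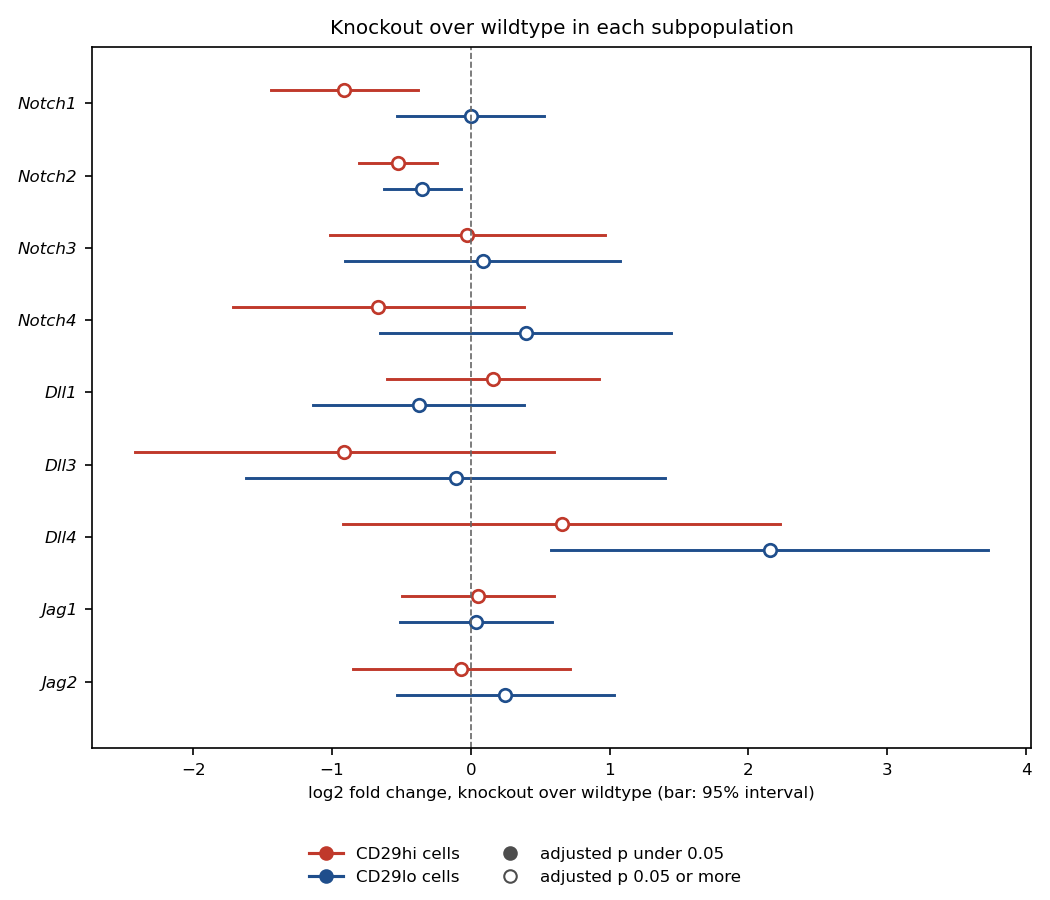
Log2 fold change of knockout over wildtype for each gene (horizontal axis), in CD29hi and in CD29lo cells, with 95% intervals from limma. No point is filled, since none passed an adjusted p of 0.05. The intervals of Notch2 lie left of 0 in both subpopulations and that of Notch1 in CD29hi alone. That of Dll4 in CD29lo lies right of 0, but both WT CD29lo arrays lay below the background there, so its size is not read.

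The genes most like each member over the 8 arrays were found among the 14597 other genes tested, by the root mean square difference of log2 values centred per gene, for members whose group means spanned at least 1. Nearest to Dll1 were Aard (0.25), Kctd4 (0.27) and the basal keratin gene Krt17 (0.27). Nearest to Jag1 were the ETS factor gene Etv5 (0.12), Rbpms (0.20) and Gtf2f2 (0.21). Both sets differ between the gates as their member does, by 4.08 to 4.54 and by 1.93 to 2.14. The genes were picked by likeness over these same arrays, so this is built into the choice.
Nearest to Jag2 were 4930500F04Rik (0.15), the glypican gene Gpc4 (0.15) and Enc1 (0.15). Nearest to Notch3 were Slc46a3 (0.15), the protein kinase A subunit gene Prkar2b (0.19) and the tissue factor gene F3 (0.20). Nearest to Notch1 were the collagen receptor gene Ddr1 (0.16), Rcbtb2 (0.18) and the DNA repair gene Ddb2 (0.18). Like Notch1 they stood lower in KO than in WT CD29hi (-0.68, -0.89 and -0.63), which the choice by likeness also favours. For the dim Dll4 (Upk1b, Nxph3 and Kifc2) and Dll3 (Lrrtm2, Ikzf1 and Gnat2) the nearest genes lay 0.40 to 0.45 and 0.25 to 0.28 away.

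Other genes of the pathway were called between the gates in both directions, to be read against all genes, of which 12.2% were called higher and 10.8% lower. Of 23 genes that process receptors and ligands, 3 were called higher and 3 lower in CD29hi, with a median of 0.06 (0.01 for all genes). Dtx4, which encodes a Deltex ubiquitin ligase, was the lowest at -3.15 ± 0.21 (limma adjusted p = 5.16e-05). It read 7.46 and 7.21 in KO CD29hi and 7.91 and 7.38 in WT CD29hi, against 10.32 and 10.88 in KO CD29lo and 10.53 and 10.82 in WT CD29lo. The ADAM protease gene Adam10 was lower at -0.71 ± 0.11 (limma adjusted p = 0.0026), and Poglut1, whose enzyme adds glucose to the EGF repeats of Notch, was higher at 1.65 ± 0.24 (limma adjusted p = 0.00202). Dtx4 and Adam10 passed in each genotype alone, and Poglut1 in KO but not in WT cells (limma adjusted p = 0.0657 in WT). Adam17, which encodes the other main Notch-cutting ADAM protease, stood at -0.35 (limma adjusted p = 0.113).

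Of 13 genes of the nuclear complex, 3 were called higher in CD29hi and 1 lower (12.2% and 10.8% of all genes), with a median of 0.13. The Mastermind-like coactivator gene Maml2 was higher at 1.12 ± 0.25 (limma adjusted p = 0.0146), the histone deacetylase gene Hdac2 at 0.55 ± 0.08 (limma adjusted p = 0.00197) and the acetyltransferase gene Kat2a at 0.93 ± 0.24 (limma adjusted p = 0.0273). Its paralog Kat2b was lower at -0.92 ± 0.19 (limma adjusted p = 0.0104). Hdac2, Kat2a and Kat2b passed in KO cells but not in WT cells (limma adjusted p = 0.0793, 0.376 and 0.16 in WT). Maml2 passed in neither genotype alone (limma adjusted p = 0.0864 in KO and 0.0873 in WT).
Of 14 target genes tested, 1 was called higher in CD29hi and 3 lower (12.2% and 10.8% of all genes), with a median of -0.28. Nrarp, a feedback inhibitor that Notch induces, was lower at -2.09 ± 0.39 (limma adjusted p = 0.00627), with 6.73 and 7.02 in KO CD29hi and 6.31 and 7.67 in WT CD29hi, against 8.97 and 9.49 in KO CD29lo and 9.45 and 8.16 in WT CD29lo. Dtx1, another Deltex gene, was lower at -2.72 ± 0.53 (limma adjusted p = 0.00793), and Gata3, the luminal transcription factor gene, at -0.50 ± 0.09 (limma adjusted p = 0.00693). Nrarp and Gata3 passed in KO cells (limma adjusted p = 0.0249 and 0.03) but not in WT cells (0.0867 and 0.0841). Dtx1 passed in neither genotype alone (limma adjusted p = 0.0598 in KO and 0.0511 in WT). Its WT CD29hi arrays read 2.92, under the background of 3.84, and 5.26, so its size is not exact. Hes6, which encodes a Hes family protein, was not called (-0.33, limma adjusted p = 0.45).
Of the 5 non-canonical ligand genes tested, 1 was called lower by limma (10.8% of all genes), Mfap5 (-4.91 ± 0.65, limma adjusted p = 0.00121), a microfibril gene that is also on the fibroblast list. Cntn1 stood at -1.03 (limma adjusted p = 0.0503; -1.92 and 0.0364 in WT alone), Dlk2 at -0.57 (0.171) and Egfl7 at 0.49 (0.294).

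Between genotypes, limma called 0 genes of these 4 lists in CD29hi, CD29lo or the average. The medians of the averaged difference were -0.03 for processing genes, -0.10 for the nuclear complex, 0.18 for targets and 0.05 for non-canonical ligands, against -0.05 for all genes. On the target list 9 of 14 genes stood above 0 in KO over WT averaged over gates. Hes6 stood lowest, and whether Notch drives it in these cells was not tested. It read 6.29 and 6.91 in KO CD29hi against 8.22 and 9.21 in WT CD29hi, and 7.54 and 7.65 in KO CD29lo against 8.18 and 8.59 in WT CD29lo. Its KO arrays all lay below its WT arrays, a difference of -1.45 ± 0.28 that did not pass (limma adjusted p = 0.184). Adam17 showed the same order, with 9.56 and 9.64 in KO CD29hi against 10.26 and 10.45 in WT CD29hi, and 9.88 and 10.18 in KO CD29lo against 10.45 and 10.78 in WT CD29lo (-0.67 ± 0.14, limma adjusted p = 0.198).

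**Figure D5:**
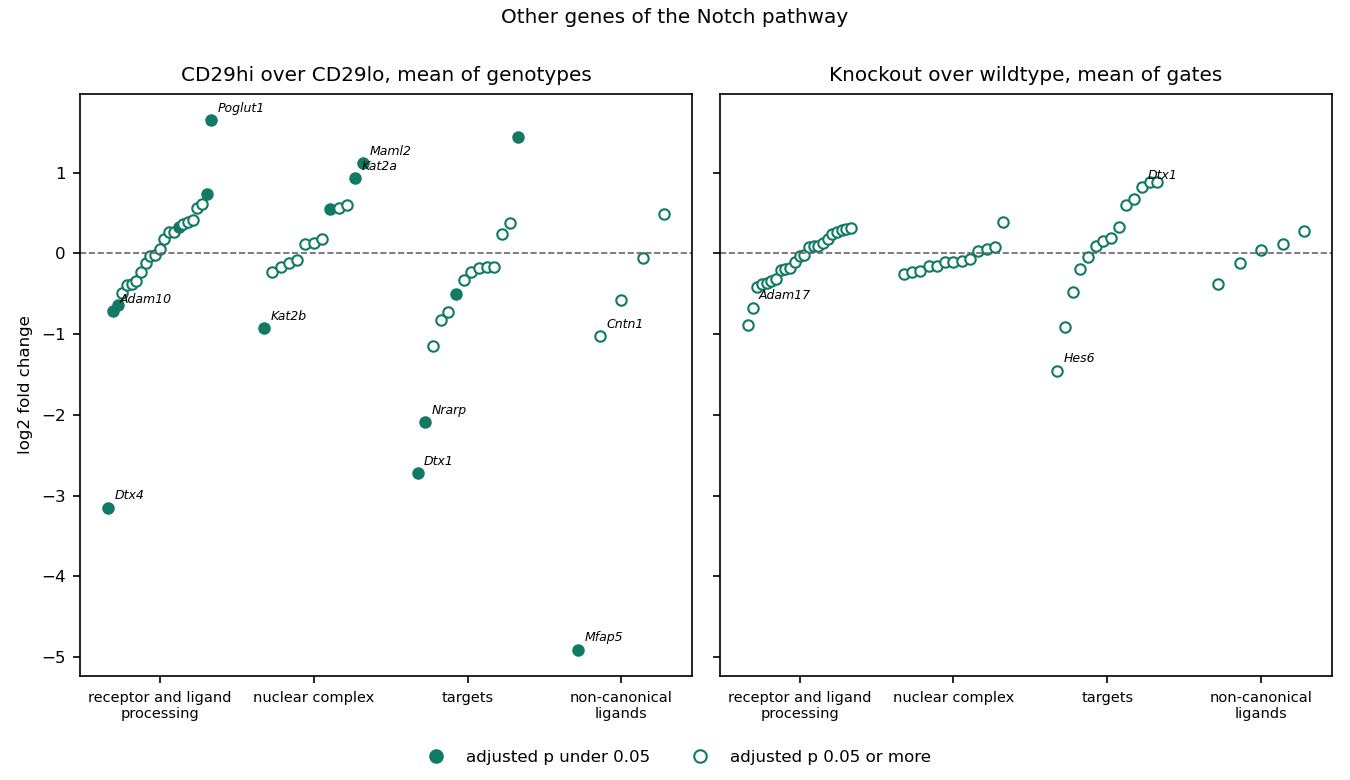
Log2 fold change of each tested gene of the 4 other Notch lists (points, ordered by value within a list). The left panel shows CD29hi over CD29lo averaged over genotypes, the right knockout over wildtype averaged over gates. Filled points passed an adjusted p of 0.05. Labels mark up to 4 genes per list, by smallest p in any contrast, where they lie over 0.6 from 0. Dtx4 at -3.15, Dtx1 at -2.72 and Nrarp at -2.09 lie far below 0 on the left, and no point is filled on the right.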

How the data were processed

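Per the labels' protocols, RNA was isolated with a PicoPure kit, amplified with a NuGEN FFPE kit and hybridised as biotin-labelled cRNA. The authors deposited 1 log2 value per probe set and array. That they are log2 follows from their range of 0 to 14.42 and the array medians of 5.45 to 5.67. The normalization is not given in the sources used here, and none was added. The number of arrays limits the precision, and nothing ties each array to its mice, so p values set each difference against the spread between arrays. CD29hi and CD29lo arrays may come from the same glands, and the main fit takes them as independent.

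The 2016 platform annotation gives 1 gene for 34958 of 45101 probe sets, several for 932 and none for 9211. Of the first, 34754 matched a RefSeq gene ID (GRCm38), used for names. A gene was left untested where its leading probe set averaged below 3.51, the 25th percentile over the array. Limma 3.58.1 in R 4.3.3 (lmFit on the 4 groups, eBayes with trend, 4 residual and 4.31 prior degrees of freedom) gave 7 two-sided contrasts. Group differences are log2 fold changes with their SE. The fit was tested on simulated data. Plots used matplotlib 3.10.9 (Python 3.11.15).

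The members, the lists and the background rule were chosen with earlier results of these data known. All 9 members are named, up to 4 genes per other Notch list by smallest p in any contrast, and the 3 nearest genes per member. The labels do not say that a replicate number marks a paired set of glands, so the number was not a term of the fit. Alternatives were another normalization, other filters, other uses of probe sets, a floor at 4, no trend, array weights, fewer arrays, and replicate or pool blocks.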

Additional observations from a re-analysis of the deposited data

How the results depend on the processing

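Over up to 20 alternatives, the number of members called ran from 2 to 4 in WT (3 as reported), from 2 to 5 in KO (4 as reported) and from 4 to 6 over both genotypes (5 as reported), and was 0 between genotypes and in the interaction. The 2 in KO came without KO CD29hi replicate 1, where Dll1 and Jag1 were called, and the 5 with the mean of probe sets. Under a replicate block the called members again numbered 3 in WT, 4 in KO, 5 over both and 0 elsewhere. Deviations of same-numbered arrays correlated at 0.01 to 0.32 over 6 pairs of groups, below 0.1 in 4 of them, so a shared number is not shown to be a pair. Of single members, the called ones Dll1, Jag1, Notch1 and Notch3 kept direction and call over both genotypes in all alternatives run, and Jag2 lost its call once. Between the gates Jag2 also passed in WT with the mean of its probe sets (2.77, limma adjusted p = 0.002) or without the variance trend (1.29, 0.0453), and in KO with the mean of its probe sets (2.59, 0.00188). Changes of sign all concerned values that were not called. Some were near 0, while the gate differences of the dim Dll3 in WT (-0.45), Dll4 in KO (0.33) and Notch4 in KO (-0.32) were unstable. With the mean of probe sets, Notch4 gave -0.0625 between the gates, Jag1 -0.045 between genotypes in CD29hi, and Notch3 and Jag1 -0.055 each in CD29lo. With KO CD29lo replicate 1 and WT CD29lo replicate 2 left out, Dll4 gave -0.01 between the gates in KO, Notch4 -0.0075 over both genotypes and Notch3 -0.08 between genotypes in CD29lo, and quantile normalization gave Notch3 0.0356 in CD29hi. Leaving out 1 array at a time, the gate difference ran from -1.05 to 0.15 for Dll3 in WT, and in KO from -0.70 to 0.065 for Notch4 and from -0.01 to 0.67 for Dll4. Under the same omissions the genotype difference in CD29hi ran from -0.41 to 0.36 for Notch3, from -0.07 to 0.18 for Jag1 and from -0.32 to 0.17 for Jag2, and in CD29lo from -0.33 to 0.50 for Notch3, from -0.71 to 0.49 for Dll3 and from -0.27 to 0.34 for Jag1; the cause was not tested. A group with 1 array left was assumed to vary like the others. The filter at the 50th percentile removed Notch4, Dll3 and Dll4, and Dll4 had no value with the mean of probe sets. Fits on the compared arrays alone were not run where a comparison already uses all 8. Signal close to background limits Dll3, Dll4 and Notch4.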

Other observations

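Some genes of the pathway lists were picked after their values had been seen. Lfng, a fringe glycosyltransferase gene that tunes how Notch receptors respond to their ligands, read 5.13 and 5.51 in KO CD29hi against 6.59 and 7.10 in WT CD29hi (-1.53, limma adjusted p = 0.321), and 6.05 and 6.35 in KO CD29lo against 6.68 and 6.19 in WT CD29lo (-0.24). The KO CD29hi arrays were the lowest of the 8, as for Notch1. Hey1, a target gene that is also on the luminal progenitor list, read 8.53 and 9.84 in KO CD29hi against 10.65 and 10.66 in WT CD29hi (-1.47, limma adjusted p = 0.487), and 10.10 and 9.49 in KO CD29lo against 9.79 and 8.78 in WT CD29lo (0.51). Hes1, the best known target, had the opposite sign, with 5.12 and 5.50 in KO CD29hi against 4.52 and 4.89 in WT CD29hi (0.61, limma adjusted p = 0.875), and 6.71 and 6.13 in KO CD29lo against 5.93 and 4.56 in WT CD29lo (1.18). None of the 3 was called in any genotype comparison.

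Hey2, another target, was the one target called higher in CD29hi (1.44, limma adjusted p = 0.0467). It read 6.13 and 4.57 in KO CD29hi and 4.78 and 5.74 in WT CD29hi, against 4.20 and 4.78 in KO CD29lo and 3.40 and 3.07 in WT CD29lo, and lay above the background on 5 of 8 arrays.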
